A study of Mus musculus with 10 samples.

Results

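The comparison set 2 RNA-seq libraries of organoids labelled DMBA+TAM against 2 libraries labelled TAM short, out of 10 libraries in 5 groups, and took in all 47069 genes of the deposited table. The organoids, intestinal epithelium grown as a closed layer in Matrigel with Noggin, EGF and R-spondin 1 (NER), came from C57BL/6 mice carrying *Lgr5-EGFP-CreERT2* and *Ppp2r1a* flox/flox and were cultured for 50 days. *Ppp2r1a* encodes the scaffold subunit of protein phosphatase 2A (PP2A). The sample titles are Lgr5 for DMBA+TAM and DSS_S for TAM short, each with a number, and neither names DMBA or tamoxifen. The paper uses DSS for dextran sulfate sodium. What the letters stand for in these titles is not given in the sources used here. The groups rest on the protocol entry of the labels. By that entry both groups received tamoxifen (TAM), which activates the Cre recombinase in Lgr5+ crypt stem cells only, so that cells which do not express *Lgr5* and do not descend from those that did keep the floxed gene. The DMBA+TAM group was in addition given the carcinogen DMBA. The protocol of the other group is written as dosage-sensitive TAM, short, and what short refers to is not given in the sources used here, so DMBA and any difference in the tamoxifen schedule cannot be told apart. Those sources give an age for mice injected with tamoxifen, and do not say whether the mice from which organoids were grown had that age. The question behind the contrast is what DMBA adds once PP2A has been removed from Lgr5+ cells.

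The intestinal epithelium is renewed from crypts, where Lgr5+ stem cells divide under Wnt signals while Paneth cells beside them secrete antimicrobial peptides. Their progeny mature into absorptive enterocytes, mucus-secreting goblet cells, hormone-secreting enteroendocrine cells and chemosensory tuft cells. Fibroblasts, muscle, vessels and macrophages lie under the epithelium and supply matrix and growth factors. An organoid fed with Noggin, EGF and R-spondin 1 normally holds the epithelial lineages alone. Epithelial-mesenchymal transition (EMT) is a change in which epithelial cells lose keratins and E-cadherin and gain matrix and mesenchymal genes under transcription factors of the Snai, Twist and Zeb families.

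The DMBA+TAM libraries held 1592366 and 1915270 counts on genes and the TAM short libraries 9837309 and 8828247, so the median TAM short library was 5.32 times as deep, while the 6 libraries of the other groups held between 9159327 and 10923673. Levels are given as CPM, the count scaled to a common library total after TMM normalization, and 3 counts came to 1.58 and 1.32 CPM in DMBA+TAM and to 0.338 and 0.378 CPM in TAM short. *Ppp2r1a* (ENSMUSG00000007564, chr17:20945311-20965916, plus strand, GRCm38) had 245 and 302 counts in DMBA+TAM and 1156 and 1168 in TAM short. That equals 129 and 133 CPM against 130 and 147 CPM, and the values of the groups lay side by side. The mean was 131 ± 2.63 (SD, n = 2) in DMBA+TAM and 139 ± 11.8 in TAM short, and the log2 fold change of -0.08 (SE 0.11) did not pass the test (edgeR adjusted p = 0.554). The means of the other groups were 126 CPM for control, 160 for DMBA and 163 for TAM long. The floxed exons are a small part of the gene and the table counts whole genes, so this level does not check the deletion. The labels do not say whether the 2 libraries of a group came from separate cultures or mice, and the p-values below therefore measure the spread between these libraries, which may be technical. An exact two-sided permutation test of 2 against 2 cannot go below p = 0.333, and for this reason all tests come from the fit across all genes.

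The labels name the material both intestine tissue and intestinal organoid, and the markers set DMBA+TAM apart from that name. The 16 genes of epithelial identity summed to 39.5 and 26.8 CPM in DMBA+TAM and to 26500 and 27200 CPM in TAM short, while the 6 libraries of the other groups ranged from 15700 to 24100 CPM. All 16 were detected in DMBA+TAM, each with at most 22 counts in a library. The 12 fibroblast markers summed to 5100 and 5060 CPM in DMBA+TAM against 403 and 344, and the 14 macrophage markers to 8210 and 7760 against 457 and 412. TAM short was not epithelium alone: the 12 smooth muscle markers summed to 3660 and 2020 CPM there, the 8 B and plasma cell markers to 3320 and 4070, and the 12 T and NK cell markers to 449 and 462. The principal component with the most variance over the 10 libraries (62.4%) placed both DMBA+TAM libraries at 224.9 and 225.4 and the other 8 between -88.8 and -20.9. In bulk libraries such as these, fewer cells of a type and less RNA per cell cannot be told apart. Whether the cells themselves changed their programme or other cells took the place of the epithelium was not tested.

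**Figure D1:**
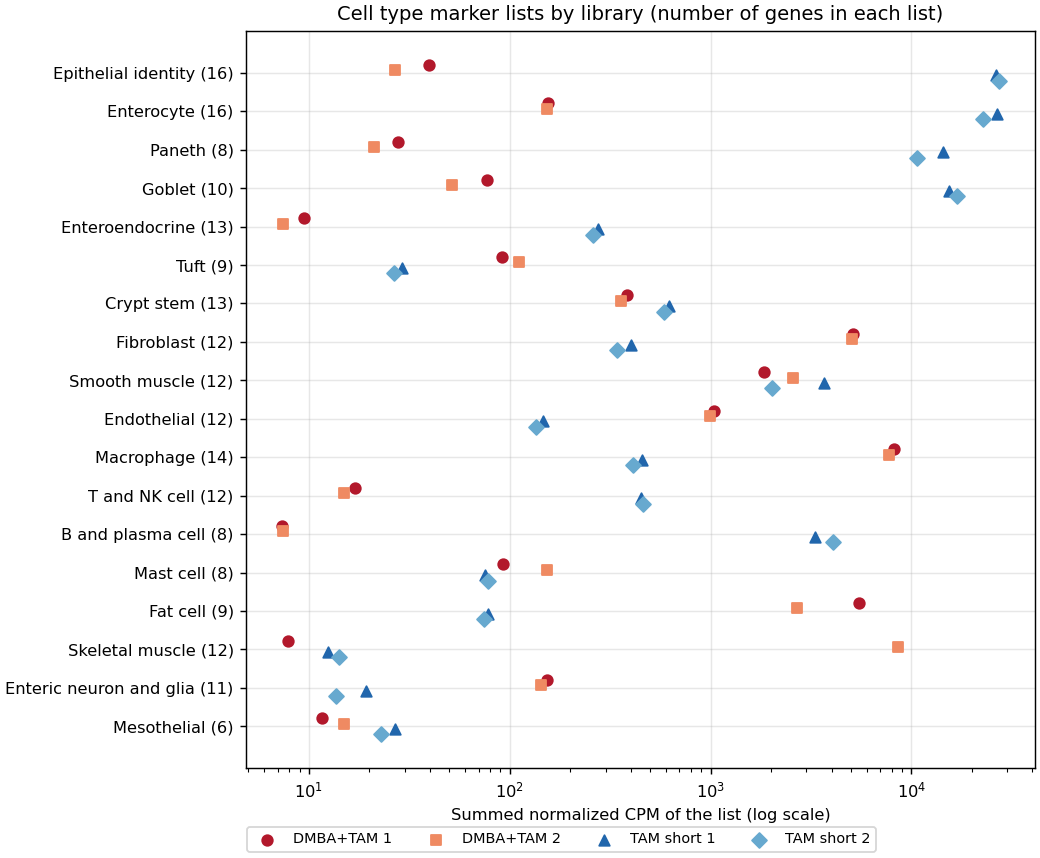
Summed level of 18 cell type marker lists in each of the 4 libraries (x axis, normalized CPM, log scale; the number after each name is the number of genes; circles and squares are the DMBA+TAM libraries, triangles and diamonds the TAM short libraries). The epithelial identity list lies near 39.5 and 26.8 CPM in DMBA+TAM and at 26500 and 27200 CPM in TAM short, fibroblast and macrophage lists lie on the opposite side, and the skeletal muscle list separates the 2 DMBA+TAM libraries from each other.

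The 2 DMBA+TAM libraries differed from each other in a small set of genes, led by those of skeletal muscle. Of 3679 genes with a mean of at least 50 CPM in DMBA+TAM, 72 differed by at least 2-fold between the replicates and 36 by at least 10-fold, against 7 and 0 of 4154 such genes in TAM short. The 10 largest ratios were those of *Acta1*, *Myh4*, *Mybpc2*, *Ttn*, *Atp2a1*, *Myh1*, *Xirp2*, *Ckm*, *Mylpf* and *Myh2*, which encode the contractile proteins, the calcium pump and the creatine kinase of skeletal muscle fibres. *Myh4*, a myosin heavy chain of fast fibres, had 2 counts in DMBA+TAM replicate 1 and 7004 in replicate 2, and none in either TAM short library. *Acta1*, the skeletal muscle actin, had 1 and 4740 counts in DMBA+TAM and 40 and 74 in TAM short. The 12 markers of skeletal muscle summed to 7.9 and 8560 CPM in DMBA+TAM and to 12.5 and 14.2 CPM in TAM short, so that only replicate 2 stood above TAM short. All 9 members tested were called higher in DMBA+TAM, and 2 were called higher without replicate 2. In that fit *Acta1* (log2 fold change -3.69, edgeR adjusted p = 0.0132) and *Mylpf* (-2.90, adjusted p = 0.026) were called lower, and *Myh2* (-4.70) and *Ckm* (-1.74) lay below TAM short without a call. Fat cell markers were in both libraries at unequal levels, 5480 CPM in replicate 1 and 2690 in replicate 2, against 78 and 74.7 CPM in TAM short.

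**Figure D2:**
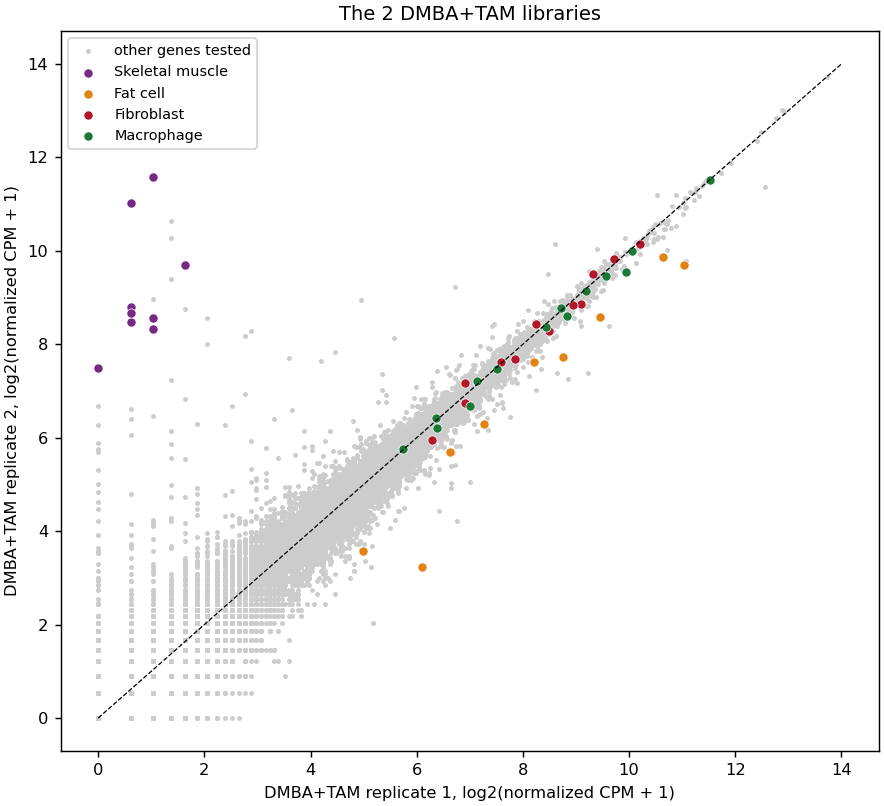
Level of each gene tested in DMBA+TAM replicate 1 (x axis) and replicate 2 (y axis), as log2(normalized CPM + 1), with 4 marker lists coloured and the dashed line marking equal levels. Fibroblast and macrophage genes lie along the line, fat cell genes lie under it and skeletal muscle genes lie far above it, from near 0 in replicate 1 to over 3000 CPM for *Myh4* in replicate 2.

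DMBA+TAM and TAM short differed in most of the genes expressed. Of 16179 genes tested, 4734 (29.3%) were higher in DMBA+TAM and 5473 (33.8%) lower, 63.1% in all, by a quasi-likelihood test in edgeR at a Benjamini-Hochberg adjusted p under 0.05. By the fitted values 2765 genes rose and 2144 fell by at least 2 on the log2 scale, counts that take in genes with no count in a group, whose fitted value does not measure the size of the change. The counts of members called in the gene lists below are to be read beside 29.3% and 33.8%. The groups did not overlap in 4689 of the genes called higher and in all 5473 called lower. With libraries scaled by their totals in place of TMM, 5999 genes were higher and 3775 lower (61.4% of the calls higher, against 46.4%), and the genes' median change on the log2 scale moved from -0.14 to 0.25, so small changes are read below against that shift. No count at all was recorded in DMBA+TAM for 1043 of the genes tested, and in TAM short for 197. After thinning each library to 1592366 counts, 788 and 758 of the 1043 still had a count in the TAM short libraries and 294 and 297 had at least 10. These genes were chosen for having no count in DMBA+TAM, which favours a count in TAM short. The thinned DMBA+TAM libraries detected 16124 and 16334 genes, and TAM short 15765 and 15692.

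Per length, the transcripts that filled the libraries were of different kinds. The 10 genes with the highest mean FPKM in DMBA+TAM included the fibrillar collagen chains *Col3a1* (8870 FPKM), *Col1a1* (5290) and *Col1a2* (4110), the matrix glycoprotein *Sparc* (4980), the lipid carrier *Apoe* (5270) and the lysozyme of macrophages, *Lyz2* (2760). In TAM short they included the antimicrobial lectins *Reg3b* (42600 FPKM) and *Reg3g* (9110), the ileal bile acid binder *Fabp6* (15800), the Paneth cell defensin *Defa24* (6900), the lipoprotein *Apoa1* (4630), the epithelial lectin *Lgals4* (4570) and the goblet cell lectin *Zg16* (4110). Both lists held *mt-Co1* and *Actb*. The plot of group means shows these sets on either side of the line of equal level.

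**Figure D3:**
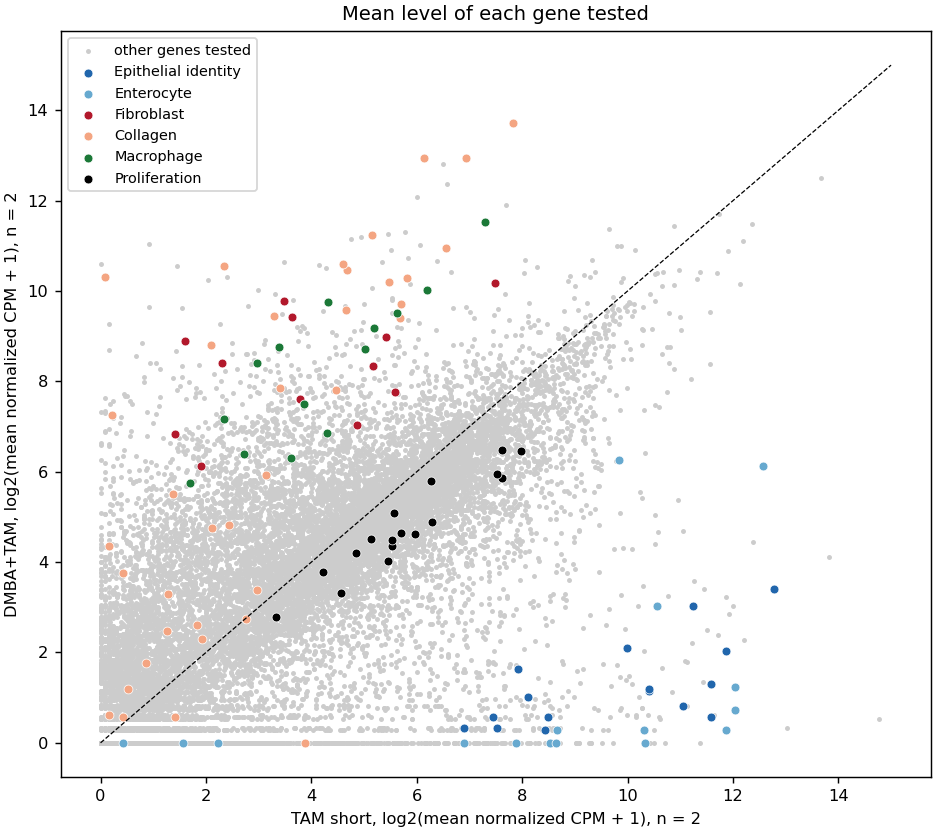
Mean level of each gene tested in TAM short (x axis) and DMBA+TAM (y axis), as log2(mean normalized CPM + 1), n = 2 libraries a group, with 6 gene lists coloured and the dashed line marking equal levels. Epithelial identity genes and most enterocyte genes lie at the foot of the plot, with *Anpep* and *Dpp4* higher up. Fibroblast and macrophage genes and most collagen genes lie above the line, *Col6a4* lies under it, and most proliferation genes lie just under it.

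Among genes that kept at least 10 counts in each library and averaged at least 50 CPM, the 15 largest falls were those of *Reg3g*, *Krt8*, *Pigr*, *Lgals4*, *Fcgbp*, *Krt19*, *Ceacam1*, *Lyz1*, *Muc2*, *Mttp*, *Upp1*, *Spint2*, *Retnlb*, *Aldh1b1* and *Anpep*, with log2 fold changes from -9.81 to -6.47. Most of these encode known products of the intestinal epithelium. *Pigr*, the receptor that carries immunoglobulin A across the epithelium, was at 5.79 and 6.59 CPM in DMBA+TAM and at 3750 and 3980 in TAM short (620-fold lower, SE 0.26 on the log2 scale, edgeR adjusted p = 7.64e-09). The 15 largest rises, from 9.76 to 6.97, were those of *Hp*, *Lox*, *Col8a1*, *Cfd*, *Serpinf1*, *Mfap5*, *Adipoq*, *Saa3*, *Ltbp2*, *Car3*, *Loxl3*, *Cxcl14*, *Col5a3*, *Olfml2b* and *Cd248*. They include matrix and crosslinking genes (*Lox*, *Loxl3*, *Col8a1*, *Col5a3*, *Mfap5*, *Ltbp2*), products of fat cells (*Cfd*, *Adipoq*) and acute phase proteins (*Hp*, *Saa3*). *Hp*, haptoglobin, which binds free hemoglobin, was at 2140 and 883 CPM in DMBA+TAM and at 1.58 and 1.89 in TAM short (866-fold higher, SE 0.62, edgeR adjusted p = 5.6e-07). The DMBA+TAM libraries are unequal for *Hp*, and both lie far above TAM short.

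The epithelial genes fell together: all 16 members of the epithelial identity list were lower in DMBA+TAM, with a median log2 fold change of -9.52, beside -0.14 over all genes tested. *Epcam* (ENSMUSG00000045394, chr17:87635979-87651106, plus strand), an adhesion protein on nearly every intestinal epithelial cell, had 3 and 3 counts in DMBA+TAM and 26911 and 24451 in TAM short. The ratio of the levels was 2120 (95% exact counting interval 976 to 5790), and the mean was 1.45 ± 0.185 CPM against 3060 ± 31.7 CPM (SD, n = 2). Such intervals, and the floors used below for genes at 0, cover counting error only. *Krt8*, the keratin of simple epithelia, had 22 and 17 counts against 60793 and 57458, a log2 fold change of -9.54 (SE 0.26, edgeR adjusted p = 7.52e-09). *Cdh1*, which encodes E-cadherin, was at 2.63 and 3.96 CPM against 986 and 1050 (log2 fold change -8.24, SE 0.23). In each of these genes the DMBA+TAM libraries lay together at the foot of the range and far from both TAM short libraries. The intestinal transcription factors fell with them: *Cdx2* had 1 and 0 counts against 1534 and 1546 (ratio 765, interval 137 to 30200), and *Hnf4a* had 4 and 1 against 11819 and 10800 (log2 fold change -10.11, SE 0.31). The brush border protein villin, *Vil1*, had 1 and 1 counts against 26849 and 24787 (ratio 6410, interval 1770 to 52900).

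The promoters of *Epcam* and *Krt8* are shown as examples that hold the E-box CAGGTG, which the Snai and Zeb factors, described further on, bind. Whether those factors had a part in the fall of these genes was not tested. The sequences are the 250 bases before the start site in RefSeq on GRCm38.p6, with matches to CAGGTG on either strand in capitals: *Epcam* at chr17:87635729-87635978 (plus strand) and *Krt8* at chr15:102004343-102004592 (minus strand), both written 5′ to 3′ toward the start site.
Epcam: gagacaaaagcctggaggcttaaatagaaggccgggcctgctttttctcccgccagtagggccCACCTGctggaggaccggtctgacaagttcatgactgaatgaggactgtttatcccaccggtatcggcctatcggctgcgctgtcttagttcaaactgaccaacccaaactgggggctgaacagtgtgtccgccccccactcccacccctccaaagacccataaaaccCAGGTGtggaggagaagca
Krt8: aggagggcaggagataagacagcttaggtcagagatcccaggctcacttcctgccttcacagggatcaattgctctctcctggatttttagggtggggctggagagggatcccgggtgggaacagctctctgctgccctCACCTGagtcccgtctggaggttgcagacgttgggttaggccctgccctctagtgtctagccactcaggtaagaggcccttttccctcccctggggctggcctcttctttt
*Epcam* held 2 matches, starting 187 and 19 bases before the start site, and *Krt8* held 1, at 111 bases. CAGGTG occurred in 31.1% of 655 promoters of genes that fell by at least 4 on the log2 scale, in 15.5% of 601 promoters of genes that rose by as much, in 14.9% of 3429 promoters of genes not called and in 17.1% of all 22862 promoters of the table. Whatever the size of the change, it occurred in 19.0% of the 3340 promoters searched of genes called lower. For genes called higher the share was 13.0% of 2775. A match is a string of letters and not a bound site, and every one of these shares includes matches that arise by chance.

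Most transcripts of absorptive cells, the bulk of a mature intestinal epithelium, were close to absent from DMBA+TAM. Of 16 enterocyte genes 14 were lower and 2 were not called, and 8 of the 16 had no count in either DMBA+TAM library. The median log2 fold change was -11.9, or -8.69 with genes at 0 set to the floor of 3 counts over the group. *Sis*, sucrase-isomaltase of the brush border, had no count in DMBA+TAM and 11902 and 9610 in TAM short, at least 1780-fold lower. *Apob*, which carries dietary fat in chylomicrons, had 0 and 1 counts against 35718 and 27027 (ratio 15600, interval 2800 to 615000). *Anpep* and *Dpp4*, peptidases that fibroblasts also carry, kept some expression. *Anpep* was at 77.4 and 60.2 CPM against 5800 and 6420, and *Dpp4* at 71.1 and 80.9 CPM against 977 and 841 (log2 fold change -3.58, SE 0.26). The members not called were *Fabp1*, with no count in DMBA+TAM and 46 and 17 in TAM short, and *Slc2a2*, with 6 and 0 counts in TAM short. *Fabp1* was called lower with DESeq2 (adjusted p = 0.0426), without a filter, in the fit of the 4 libraries alone and after thinning.

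Genes of the ileum were high in TAM short. All 5 genes of bile acid handling in the ileum were lower, 3 of them without a count in DMBA+TAM. *Fabp6* (chr11:43596049-43601540, minus strand), which binds bile acids inside ileal enterocytes, had 1 and 0 counts in DMBA+TAM and 69451 and 71046 in TAM short (ratio 34900, interval 6260 to 1380000). The level of 8390 ± 789 CPM (SD, n = 2) in TAM short had no counterpart in the rest of the series, where the group means were 1.53 CPM in control, 1.08 in DMBA and 1.82 CPM under TAM long. Over the list of 5 genes the other groups were not alike, with summed levels of 378 to 417 CPM in control, 7.06 to 73.6 in DMBA and 16.6 to 216 in TAM long, against 0.527 and 1.32 CPM in DMBA+TAM and 9050 and 10400 in TAM short. *Slc10a2*, the transporter that takes bile acids up, had no count in DMBA+TAM and 2058 and 2643 in TAM short, at least 389-fold lower, and *Fgf15*, the hormone that reports bile acids to the liver, was at least 49.9-fold lower, though DESeq2 did not call it (adjusted p = 0.11). *Reg3b*, an antimicrobial lectin, stood at 25500 and 30500 CPM in TAM short, above the control mean of 4020 CPM, and at 0 and 0.879 CPM in DMBA+TAM.

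The secretory lineages fell as well. All 7 Paneth cell genes tested of 8 were lower: *Pla2g2a*, a secreted phospholipase, had no count in DMBA+TAM and 14127 and 10274 in TAM short (at least 2020-fold lower), and *Defa24*, of a family of near-identical defensins among which reads may be split, had 2 and 0 counts against 32863 and 21542. *Lyz1*, the Paneth cell lysozyme, was at 23.2 and 18.5 CPM against 6110 and 4490. It is a close copy of *Lyz2*, which was high in DMBA+TAM, so that some of its counts there may belong to the other gene. All 10 goblet cell genes were lower (median log2 fold change -8.04). *Muc2*, the gel-forming mucin, was at 13.2 and 8.79 CPM against 2180 and 2740 (log2 fold change -7.82, SE 0.30, edgeR adjusted p = 2.71e-08). Of 11 enteroendocrine genes tested 10 were lower, among them *Chga*, the granule protein, at 3.16 and 1.76 CPM against 28.5 and 22.4 (log2 fold change -3.40, SE 0.38). *Tph1*, which starts serotonin synthesis, was not called (log2 fold change 0.42, SE 0.68). Tuft cell markers split: *Trpm5*, the taste channel of tuft cells, had no count against 18 and 17 (at least 2.9-fold lower), whereas *Dclk1*, *Alox5* and *Ptgs1* were higher, *Dclk1* at 29.5 and 44.4 CPM against 3.95 and 4.53. *Ptgs1* (1.12) was not called without DMBA+TAM replicate 2 (0.95, adjusted p = 0.0565). *Alox5* and *Ptgs1* are also genes of myeloid cells, and *Pou2f3*, which specifies tuft cells, had no count in DMBA+TAM and 2 and 1 in TAM short.

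Genes of crypt stem cells did not move as a block. Of 13, 4 were higher (*Lgr5*, *Cd44*, *Ephb3*, *Smoc2*), 7 were lower and 2 were not called, the share higher lying near the 29.3% over all genes (33.8% lower). *Lgr5* (chr10:115450311-115587780, minus strand), the R-spondin receptor that marks crypt stem cells, had 40 and 26 counts in DMBA+TAM, or 21.1 and 11.4 CPM, against 5.52 and 6.42 CPM in TAM short. Both DMBA+TAM values lay above both TAM short values, and the log2 fold change was 1.43 (SE 0.38, edgeR adjusted p = 0.00789). It was not called without DMBA+TAM replicate 1 (0.91, adjusted p = 0.105) or without TAM short replicate 1 (1.30, adjusted p = 0.0574). *Cd44*, a hyaluronan receptor that leukocytes and fibroblasts carry too, was at 258 and 233 CPM against 47.1 and 52.1 (log2 fold change 2.31, SE 0.22). *Olfm4*, a secreted marker of the same crypt cells, went the other way, with 2 and 0 counts against 2579 and 1876 (ratio 553, interval 153 to 4570). *Rnf43*, a Wnt feedback inhibitor of the stem cell, had no count against 138 and 131 (at least 22.3-fold lower), and *Prom1* was at 2.63 and 1.32 CPM against 111 and 122. *Axin2*, which reports Wnt activity through beta-catenin, was at 8.96 and 7.91 CPM against 59.3 and 64.6 (log2 fold change -2.88, SE 0.22, edgeR adjusted p = 2.1e-06). With libraries scaled by their totals 4 members were lower instead of 7, and without DMBA+TAM replicate 1 the count of higher members was 2. *Smoc2* (0.65) was not called without DMBA+TAM replicate 1 (0.64, adjusted p = 0.0566), DMBA+TAM replicate 2 (0.61, adjusted p = 0.0751) or TAM short replicate 2 (0.48, adjusted p = 0.126).

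Cell cycle genes were lower in DMBA+TAM by modest amounts. Of 17, 15 were lower and none higher, with a median log2 fold change of -1.15, and 11 were lower with libraries scaled by their totals. *Mki67*, present in all cycling cells, was at 73.7 and 102 CPM against 200 and 192 (log2 fold change -1.15, SE 0.18, edgeR adjusted p = 0.000388). *Top2a*, which untangles DNA in mitosis, was at 69.0 and 105 CPM against 261 and 242 (log2 fold change -1.53, SE 0.18). *Ccnd1*, the cyclin that drives entry into the cycle, was at 61.1 and 53.6 CPM against 201 and 191 (log2 fold change -1.77, SE 0.30). In all 3 the libraries of a group lay together and the groups did not overlap, as in all 5473 genes called lower. *Aurkb* and *Ccne1* were not called.

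Mesenchymal genes rose. All 12 fibroblast markers were higher in DMBA+TAM, with a median log2 fold change of 4.28. *Pdgfrb*, a growth factor receptor of fibroblasts and pericytes, was at 192 and 196 CPM against 13.0 and 12.6 (log2 fold change 3.92, SE 0.14, edgeR adjusted p = 1.73e-08). *Thy1*, a surface protein of fibroblasts, was at 641 and 724 CPM against 12.1 and 10.7 (log2 fold change 5.90, SE 0.15). *Fap*, a protease of activated fibroblasts, had 226 and 241 counts against 7 and 20 in the deeper TAM short libraries (log2 fold change 6.10, SE 0.34). Smooth muscle genes divided instead. *Acta2*, the actin of smooth muscle and of myofibroblasts, was at 732 and 572 CPM against 265 and 165 (log2 fold change 1.60, SE 0.28), whereas *Myh11*, the smooth muscle myosin, was at 44.8 and 47.0 CPM against 878 and 442 (log2 fold change -3.84, SE 0.41). Of 12 smooth muscle genes, *Acta2* and *Tagln* were higher, 6 were lower and 4 were not called, beside 29.3% higher and 33.8% lower over all genes. *Tagln* was not called without TAM short replicate 2 (log2 fold change 0.84, adjusted p = 0.0613). Of the members not called, *Des* and *Synm* had log2 fold changes of -3.28 and -1.73 without DMBA+TAM replicate 2. *Tpm2*, also not called, had 2.3 without DMBA+TAM replicate 1. In every member of the smooth muscle list TAM short replicate 1 exceeded replicate 2.

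Matrix genes rose to high levels. Collagen genes summed to 46500 and 45800 CPM in DMBA+TAM and to 1020 and 822 CPM in TAM short. Of 37 collagen genes tested of 44, 28 were higher, 1 was lower and 8 were not called, with a median log2 fold change of 4.40. *Col1a1* (chr11:94936224-94953042, plus strand), the main chain of type I collagen, was at 7540 and 8310 CPM against 76.4 and 62.3 (114-fold higher, log2 fold change 6.83, SE 0.23, edgeR adjusted p = 1.56e-08). *Col4a1*, of the basement membrane, was at 1970 and 1970 CPM against 102 and 83.6 (log2 fold change 4.40, SE 0.20). *Col10a1*, known from hypertrophic cartilage, had 3065 and 2068 counts against 1 and 0 (ratio 20700, interval 3710 to 817000). It was at or near 0 in every other group too, with means of 0.145 CPM in DMBA and 0 in control and TAM long. The member that fell was *Col6a4*, with no count against 139 and 95, at least 19.4-fold lower.

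All 18 matrix genes other than collagens rose, with a median log2 fold change of 5.39. *Fn1*, fibronectin, was at 6950 and 7340 CPM against 106 and 71.7 (log2 fold change 6.33, SE 0.28). *Lox*, which crosslinks collagen and elastin, was at 1290 and 1140 CPM against 3.50 and 2.77 (log2 fold change 8.58, SE 0.26, edgeR adjusted p = 1.09e-08), and its relatives *Loxl1* and *Loxl2* rose by 5.74 and 4.38. *Tnc* and *Postn*, matrix proteins of wounds and tumor stroma, stood at 2060 and 2080 CPM against 69.5 and 62.2 and at 1180 and 981 CPM against 45.1 and 23.7. Elastin, *Eln*, was unequal between the DMBA+TAM libraries at 783 and 334 CPM, both above the 33.7 and 25.6 CPM of TAM short. The smallest rise was that of *Mfap4*, a microfibril protein (log2 fold change 1.53, SE 0.23).

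Matrix proteinases rose together with their inhibitors. Of 15 genes 12 were higher and none was lower, with a median log2 fold change of 5.09. *Mmp14*, a membrane-bound collagenase that activates *Mmp2*, was at 781 and 836 CPM against 26.2 and 21.4 (log2 fold change 5.09, SE 0.17), and *Mmp2* at 708 and 801 CPM against 17.8 and 17.6 (5.41, SE 0.21). *Mmp3*, stromelysin, was at 184 and 174 CPM against 0.902 and 0.126 (8.35, SE 0.65, edgeR adjusted p = 2.43e-06). *Mmp13*, a collagenase, was at 64.8 and 41.3 CPM against 5.19 and 4.28 (3.47, SE 0.31, edgeR adjusted p = 5.88e-06). None of these overlapped between the groups, as held for 4689 of the 4734 genes called higher. The inhibitor *Timp1* was at 441 and 480 CPM against 0.451 and 1.01 (9.30, SE 0.29, edgeR adjusted p = 1.23e-08), and *Timp2* and *Timp3* rose by 4.38 and 5.42. *Mmp10*, *Mmp15* and *Mmp28* were not called. *Mmp10* was called lower with DESeq2 (-1.41, adjusted p = 0.0371) and without a filter (-1.57). Its log2 fold change was -3.35 without DMBA+TAM replicate 1. *Mmp7*, which stands in the Paneth cell list because Paneth cells secrete it, had no count in DMBA+TAM and 2368 and 1660 in TAM short (at least 333-fold lower).

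The promoters of *Mmp3* and *Mmp13* are shown because they are known targets of AP-1, the dimer of Fos and Jun proteins, whose site TGANTCA is in capitals. They are the 250 bases before the RefSeq start sites on GRCm38.p6, at chr9:7445572-7445821 and chr9:7272264-7272513, both on the plus strand.
Mmp3: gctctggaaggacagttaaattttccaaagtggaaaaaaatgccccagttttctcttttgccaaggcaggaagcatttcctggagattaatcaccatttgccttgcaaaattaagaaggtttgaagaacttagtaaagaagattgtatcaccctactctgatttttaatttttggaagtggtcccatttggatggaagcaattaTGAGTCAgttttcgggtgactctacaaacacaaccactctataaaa
Mmp13: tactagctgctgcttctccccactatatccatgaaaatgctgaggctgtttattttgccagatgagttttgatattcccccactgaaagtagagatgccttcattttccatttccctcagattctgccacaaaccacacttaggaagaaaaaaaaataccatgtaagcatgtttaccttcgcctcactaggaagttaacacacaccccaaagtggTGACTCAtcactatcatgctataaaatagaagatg
Each held 1 match, starting 46 bases before the start site in *Mmp3* and 35 in *Mmp13*. TGANTCA occurred in 7.49% of 601 promoters of genes that rose by at least 4 on the log2 scale and in 9.92% of 655 that fell by as much, against 4.14% of those not called and 6.96% of all. Over all genes called whose promoters were searched it occurred in 4.9% of 2775 that were higher and 4.91% of 3340 that were lower. In the levels of the factors themselves, *Fos* was at 55.3 and 35.6 CPM against 74.2 and 81.0, *Jun* at 90.6 and 91.9 against 85.0 and 86.0 (not called), and *Fosl1*, a Fos relative, at 3.69 and 3.52 against 0.564 and 0.126 (log2 fold change 3.29, SE 0.74). *Jun* was called higher with libraries scaled by their totals (0.50, edgeR adjusted p = 0.0228). *Fos* was called lower by TMM scaling (-0.78, adjusted p = 0.0152) but not with libraries scaled by their totals (-0.38, adjusted p = 0.18), without DMBA+TAM replicate 2 (-0.51, adjusted p = 0.123) or without TAM short replicate 2 (-0.74, adjusted p = 0.0616).

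All 6 EMT transcription factors rose, with a median log2 fold change of 5.11. *Snai1* had 52 and 83 counts in DMBA+TAM and 7 and 6 in the TAM short libraries (log2 fold change 5.34, SE 0.42, edgeR adjusted p = 2.45e-06), and *Twist1* had 55 and 77 against 8 and 0 (6.01, SE 0.77). *Zeb2* was the most abundant by CPM, at 269 and 216 against 19.4 and 20.3 (3.61, SE 0.23), and *Zeb1* was at 78.5 and 73.0 CPM against 12.6 and 9.44 (2.77, SE 0.23). *Vim*, the intermediate filament of mesenchymal cells, was at 1690 and 1530 CPM against 83.3 and 81.3 (4.29, SE 0.16). *Zeb2*, *Twist1* and *Snai2* are also expressed by fibroblasts, and *Zeb2* by macrophages, whose markers rose in the same 2 libraries as given above. The part of those cells in this rise was not tested.

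**Figure D4:**
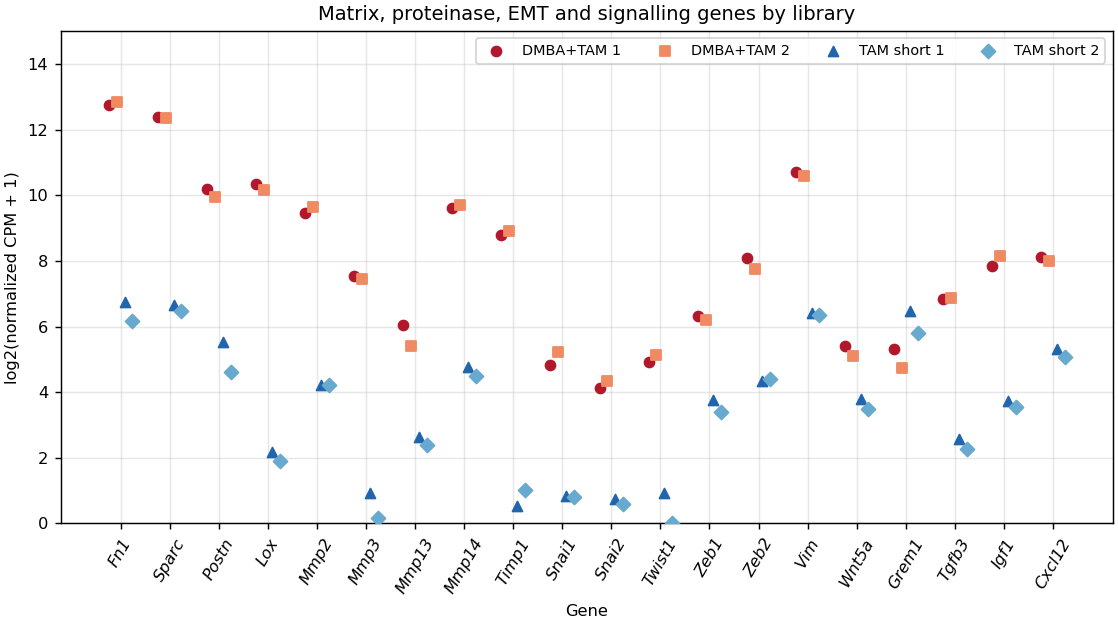
Level of 20 genes of matrix, proteolysis, EMT and signalling in each library, as log2(normalized CPM + 1) (red and orange for DMBA+TAM replicates 1 and 2, dark and light blue for TAM short replicates 1 and 2). For 19 of the genes both DMBA+TAM libraries lie above both TAM short libraries, and *Grem1* shows the opposite order.

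Wnt signals maintain the stem cells of the crypt. Of 22 Wnt genes tested 14 were higher, 2 lower and 6 not called, beside 29.3% higher and 33.8% lower over all genes. *Wnt3*, the ligand of Paneth cells, had no count in DMBA+TAM and 31 and 30 in TAM short (at least 5.05-fold lower), and *Fzd5*, an epithelial receptor, was at 12.1 and 18.0 CPM against 161 and 166 (log2 fold change -3.42, SE 0.19). The stromal ligands *Wnt9a* and *Wnt5a* rose, *Wnt9a* from 0.902 and 0.756 CPM to 68.5 and 61.6 (6.26, SE 0.28) and *Wnt5a* from 12.9 and 10.3 to 41.6 and 33.0 (1.68, SE 0.21). Of the secreted inhibitors, *Sfrp2* had 119 and 307 counts against none (at least 572-fold higher), *Sfrp4* 154 and 240 against 1 and 1 (ratio 794, interval 218 to 6580), and *Dkk2* was at 103 and 70.3 CPM against 3.61 and 2.39. *Wnt2b* is among the 14 by TMM scaling (1.23, adjusted p = 0.036) and was lost without DMBA+TAM replicate 2 (0.85), TAM short replicate 1 (1.38) or TAM short replicate 2 (1.04). The R-spondin genes *Rspo1* and *Rspo3* were at 3.02 CPM or less in every library and were not called.

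BMP signalling, which drives cells out of the crypt, gave 8 higher, 3 lower and 6 not called of 17 (29.3% higher and 33.8% lower over all genes). The antagonists *Fst* and *Chrdl1* were higher, at 94.3 and 70.3 CPM against 7.44 and 5.54 and at 47.4 and 58.0 CPM against 5.07 and 3.40. The BMP target *Id1* was lower, at 25.3 and 27.3 CPM against 114 and 112 (log2 fold change -2.10, SE 0.14, edgeR adjusted p = 8.18e-07). *Grem1*, the antagonist of crypt muscle cells, was at 39.0 and 25.9 CPM against 87.6 and 55.2 and was not called (-1.15, SE 0.51, edgeR adjusted p = 0.0761), but it was called in the fit of the 4 libraries alone (-1.11, adjusted p = 0.0038). Of 14 TGF-beta genes 12 were higher. All 3 ligands rose, *Tgfb1* from 7.89 and 7.18 CPM to 139 and 142 (4.22, SE 0.15). *Smad7*, the feedback inhibitor, was the member that fell (-0.81, SE 0.22), and it was not called with libraries scaled by their totals (-0.41, adjusted p = 0.155) or without DMBA+TAM replicate 1 (-0.59, adjusted p = 0.0698).

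Of 10 IGF genes 8 were higher and none lower. *Igf1* was at 231 and 282 CPM against 12.2 and 10.7 (log2 fold change 4.48, SE 0.18), and the binding protein *Igfbp5* at 2400 and 2160 CPM against 27.2 and 24.4 (6.46, SE 0.17, edgeR adjusted p = 6.78e-09). Of 10 genes of the EGF family 6 were lower and 2 higher. *Erbb3* was at 11.1 and 4.84 CPM against 423 and 487 (-5.87, SE 0.27), *Areg* had no count against 55 and 59 (at least 9.43-fold lower), and *Tgfa* had 3 and 2 counts against 225 and 210 (ratio 21.6, interval 9.18 to 66.8). *Egfr*, the receptor for the EGF in the medium, was higher at 145 and 139 CPM against 45.6 and 39.4 (1.74, SE 0.17, edgeR adjusted p = 1.3e-05). *Hbegf* was lower by TMM scaling (-0.75, adjusted p = 0.0476) but not without DMBA+TAM replicate 1 (-0.97, adjusted p = 0.0651), DMBA+TAM replicate 2 (-0.59, adjusted p = 0.229) or TAM short replicate 2 (-0.54, adjusted p = 0.207). Notch genes gave 9 higher of 11: *Notch3*, of vessel walls, was at 54.8 and 68.6 CPM against 3.27 and 3.78 (4.13, SE 0.27), while *Dll1*, a ligand of secretory cells, was lower at 4.74 and 3.08 CPM against 15.2 and 14.5 (-1.94, SE 0.28).

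Macrophage genes rose and lymphocyte genes fell. All 14 macrophage markers were higher, with a median log2 fold change of 3.96. *Adgre1*, which encodes F4/80, was at 421 and 438 CPM against 10.7 and 8.31 (5.49, SE 0.24, edgeR adjusted p = 5.4e-08), and *Mrc1*, the mannose receptor, at 987 and 747 CPM against 21.9 and 16.1 (5.51, SE 0.21). *C1qa*, of complement, was at 1060 and 1020 CPM against 75.3 and 70.0 (3.84, SE 0.15). Lymphocyte genes went the other way: 11 of 12 T and NK cell markers were lower and 4 had no count in DMBA+TAM. *Cd3g*, of the T cell receptor complex, had no count against 161 and 136 (at least 24.6-fold lower), and *Gzma*, a granzyme, had 6 and 4 counts against 1519 and 1405 (-6.17, SE 0.60). A granzyme of another kind rose: *Gzme* had 393 and 432 counts in DMBA+TAM and 1 and 0 in TAM short (ratio 3320, interval 595 to 131000), with means of at most 0.049 CPM in the other 3 groups. Of 8 B and plasma cell markers 5 were lower, among them *Igha*, the heavy chain of immunoglobulin A, with 7 and 8 counts against 18866 and 21093 (-9.37, SE 0.60), and 3 were not called. All 8 were called lower in the fit of the 4 libraries alone. Without DMBA+TAM replicate 1 or 2, in turn, the count was 3.

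Chemokine and cytokine genes mostly rose. Of 20 chemokines 13 were higher, 5 lower and 2 not called. *Ccl8* was at 450 and 462 CPM against 7.33 and 7.93 (5.90, SE 0.33) and *Cxcl14* at 737 and 885 CPM against 5.64 and 6.30 (7.08, SE 0.25), whereas the epithelial chemokine *Ccl25* was at 1.58 and 2.64 CPM against 577 and 556 (-8.03, SE 0.40) and *Ccl28* at 2.11 and 0 against 65.6 and 83.5 (-6.25, SE 0.65). Of 14 cytokine and acute inflammation genes 11 were higher. *Il6* had 18 and 17 counts against none (at least 47-fold higher), *Il33*, an alarmin of stromal nuclei, rose by 3.84 on the log2 scale (SE 0.35), and *Ptgs2*, cyclooxygenase-2, at 83.2 and 66.4 CPM against 7.33 and 5.04 (3.58, SE 0.31). *Nos2*, the inducible nitric oxide synthase, was lower, at 14.7 and 7.47 CPM against 429 and 513 (-5.43, SE 0.48), and so was *Il18*. Of 7 MHC class II genes *H2-Aa* and *H2-Eb1* were higher and 5 were lower, with *Cd74* at 464 and 398 CPM against 1750 and 1840 (-2.06, SE 0.37) and *H2-Eb1* at 220 and 212 against 29.8 and 29.0 (2.88, SE 0.34). *H2-Ab1* (-1.07) was lost when any of DMBA+TAM replicate 2 (-0.93), TAM short replicate 1 (-1.09) or TAM short replicate 2 (-1.10) was left out. Interferon-induced genes gave 3 higher and 4 lower of 12, near the shares over all genes (29.3% and 33.8%). None was lower with libraries scaled by their totals, and 1 to 3 were when a library was left out. *Oas2* was at 46.4 and 55.4 CPM against 6.09 and 6.42 (3.03, SE 0.35).

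Most vessel and fat genes were higher as well, and nerve genes less evenly so. Of 12 endothelial markers 10 were higher: *Cdh5*, the cadherin of vessel junctions, was at 142 and 143 CPM against 8.57 and 9.19 (SE of the log2 fold change 0.22, edgeR adjusted p = 2.14e-07) and *Pecam1* at 218 and 220 CPM against 23.5 and 24.1. *Prox1*, which endothelium of lymph vessels and enteroendocrine cells share, was lower at 3.16 and 3.08 CPM against 6.76 and 9.07 (-1.34), and lost its call without either DMBA+TAM library (-1.38 and -1.34) or TAM short replicate 2 (-1.14). Of 9 fat cell markers 8 were higher and *Pparg* was not called (1.13, adjusted p = 0.0608). *Pparg* was called higher with DESeq2 (1.22, adjusted p = 0.00835), with libraries scaled by their totals (1.54), in the fit of the 4 libraries alone (1.18), without a filter (1.06), with the replicate block (1.08), after thinning (1.69) and without DMBA+TAM replicate 2 (1.70), but not without replicate 1 (0.22) or either TAM short library (0.95 and 1.28). *Adipoq*, adiponectin, was at 433 and 211 CPM against 1.58 and 2.27 (7.38, SE 0.90) and *Fabp4* at 2100 and 827 CPM against 19.1 and 17.8 (6.31, SE 0.52). Replicate 1 was the higher library in each fat cell gene. Of 11 genes of enteric neurons and glia 6 were higher, 1 was lower and 4 were not called (29.3% higher and 33.8% lower over all genes). *Snap25* lost its call without DMBA+TAM replicate 1 (0.87) or TAM short replicate 2 (0.92). *S100b*, a calcium-binding protein of glia, was at 8.43 and 7.03 CPM against 0.338 and 0.630 (3.97, SE 0.45).

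PP2A consists of the scaffold, a catalytic subunit and a regulatory subunit that selects substrates. Of 15 subunit genes 1 was higher, 5 lower and 9 not called, and with libraries scaled by their totals 4 were higher and 3 lower. The share that was lower is near the 33.8% over all genes. The catalytic subunit genes *Ppp2ca* and *Ppp2cb* were at 149 and 144 CPM against 232 and 230 (-0.66, SE 0.11) and at 62.7 and 49.2 CPM against 104 and 93.8 (-0.83, SE 0.19), and *Ppp2ca* was not called with libraries scaled by their totals (-0.25, adjusted p = 0.0978). The other scaffold gene, *Ppp2r1b*, rose from 30.2 and 32.0 CPM to 62.7 and 50.6 (0.86, SE 0.18, edgeR adjusted p = 0.00197). The regulatory subunit *Ppp2r5d* was lower at 32.1 and 36.1 CPM against 79.7 and 89.5 (-1.31, SE 0.15). *Ppp2r2a* was lower by TMM scaling (-0.48), and neither with libraries scaled by their totals (-0.08) nor without DMBA+TAM replicate 2 (-0.41, adjusted p = 0.0639).

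DMBA is turned into its DNA-binding form by *Cyp1b1* and *Ephx1* after the aryl hydrocarbon receptor, *Ahr*, has been activated. *Cyp1b1* was at 113 and 217 CPM in DMBA+TAM and at 13.5 and 10.6 in TAM short (log2 fold change 3.77, SE 0.30, edgeR adjusted p = 2.53e-06). *Ephx1*, epoxide hydrolase, was at 49.0 and 42.2 CPM against 4.28 and 5.79 (3.18, SE 0.23), and *Ahr* itself rose by 1.44 (SE 0.20), with 76 and 111 counts against 142 and 133 in the deeper libraries. Both DMBA+TAM libraries exceeded both TAM short libraries in these genes, as in 4689 of the 4734 genes called higher. Of other targets of the receptor, *Nqo1* was lower at 5.79 and 3.96 CPM against 31.9 and 34.3 (-2.78, SE 0.46), and *Tiparp* was not called (-0.27, SE 0.15). *Cyp1a1* had no count in DMBA+TAM and 0 and 1 in TAM short, too few to show a change in either direction. Whether the receptor was activated was not tested. *Cyp1b1* is also a gene of fibroblasts, whose markers moved with it. Of the 8 genes tested on this list 4 were higher, 2 lower and 2 not called, beside 29.3% higher and 33.8% lower over all genes. *Ahrr* (-1.40) and *Arnt* (0.34) were called on little: *Ahrr* was not called without DMBA+TAM replicate 1 (-0.86) or either TAM short library (-1.48 and -1.38), nor *Arnt* without either DMBA+TAM library (0.32 each) or TAM short replicate 1 (0.21).

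Targets of p53 divided into 5 higher, 4 lower and 7 not called of 16, shares near those over all genes (29.3% higher and 33.8% lower), and into 9 higher and 3 lower with libraries scaled by their totals. *Cdkn1a*, which encodes the cell cycle inhibitor p21, was lower at 66.4 and 72.1 CPM against 293 and 324 (-2.15, SE 0.14, edgeR adjusted p = 6.98e-07). *Perp*, a desmosome gene of epithelia, had 0 and 4 counts against 2858 and 2821 (-8.45, SE 0.37). *Phlda3*, which restrains Akt, was higher at 67.4 and 67.7 CPM against 3.72 and 2.90 (4.34, SE 0.24), and so were *Plk2*, *Eda2r*, *Zmat3* and *Ccng1*. *Mdm2* and *Bax*, common reporters of p53, were not called (0.18, SE 0.13, and 0.34, SE 0.14). Both were called higher with libraries scaled by their totals, at 0.58 and 0.74. *Fas* was lower by TMM scaling (-0.59, adjusted p = 0.0461), and not without DMBA+TAM replicate 2 (-0.29), TAM short replicate 1 (-0.60) or TAM short replicate 2 (-0.63).

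Of 15 genes induced by the ERK kinases 9 were higher, 3 lower and 3 not called (29.3% higher and 33.8% lower over all genes). *Etv4*, an Ets factor, rose from 0.338 and 0.756 CPM to 36.9 and 26.8 (5.84, SE 0.48, edgeR adjusted p = 3.23e-06), *Etv5* from 3.50 and 5.04 to 34.8 and 31.7 (2.96, SE 0.40) and *Spry4* from 1.92 and 1.76 to 21.1 and 24.2 (3.61, SE 0.25). *Dusp6*, a phosphatase that switches ERK off, was lower at 82.7 and 79.1 CPM against 181 and 148 (-1.03, SE 0.16). *Myc* was at 7.90 and 12.8 CPM against 13.4 and 15.1 and was not called (-0.45, SE 0.28). Without DMBA+TAM replicate 2 the count of lower members was 1. *Dusp4* (1.30) lost its call without DMBA+TAM replicate 1 (1.11) or either TAM short library (1.35 and 1.21), and *Spry2* (0.70) without DMBA+TAM replicate 1 (0.60) or TAM short replicate 1 (0.53).

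**Figure D5:**
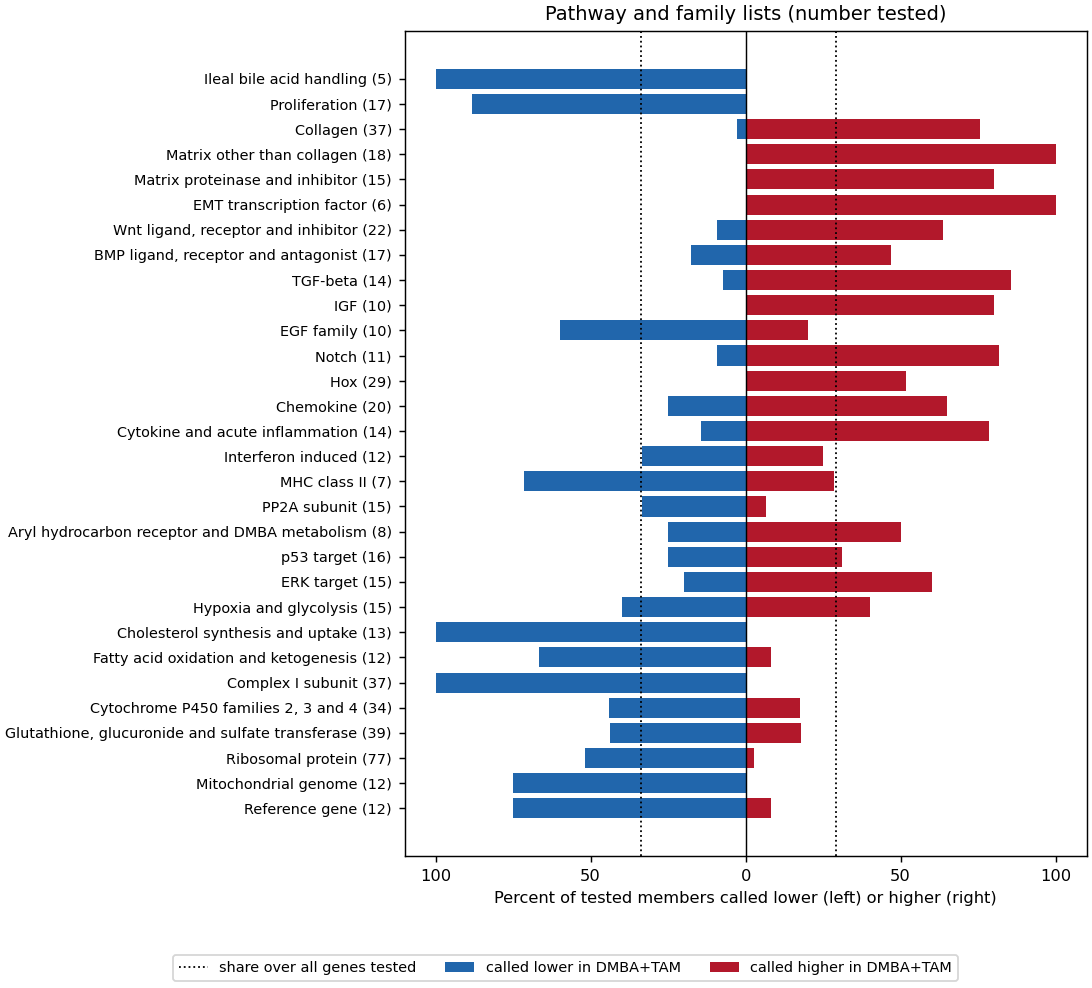
Share of the tested members of each pathway or family list called lower (bars to the left) or higher (bars to the right) in DMBA+TAM, in percent, with the number tested after each name. Dotted lines mark the shares over all genes tested, 33.8% lower and 29.3% higher, and the bars for collagen, other matrix, matrix proteinase and EMT lists reach far past the line on the right, those for bile acid handling, cholesterol and complex I genes past the line on the left.

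Metabolic genes were lower in several families. All 13 genes of cholesterol synthesis and uptake fell, with a median log2 fold change of -3.49. *Sqle*, squalene epoxidase, was at 18.4 and 7.03 CPM against 382 and 412 (-5.00, SE 0.35). All 37 nuclear genes of respiratory complex I were lower too, by small amounts (median log2 fold change -1.28, 30 of 37 with libraries scaled by their totals), such as *Ndufs6* at 28.4 and 31.7 CPM against 119 and 114 (-1.95, SE 0.14). Of 12 genes of the mitochondrial genome 9 were lower and none higher, and 6 with libraries scaled by their totals. *mt-Co1* was at 5720 and 5960 CPM against 13100 and 13200 (-1.17, SE 0.16).

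Of 12 genes of fatty acid oxidation 8 were lower. *Cpt2*, the partner of *Cpt1a* at the inner mitochondrial membrane, was at 25.3 and 20.2 CPM against 117 and 138 (-2.49, SE 0.24). *Cpt1a*, which admits fatty acids to mitochondria, was at 113 and 113 CPM against 80.4 and 108 and was not called. *Pdk4* was called higher on 11.1 and 207 CPM against 2.71 and 1.26, its DMBA+TAM libraries differing in the direction of the skeletal muscle genes, and its log2 fold change fell from 5.77 to 2.43 without replicate 2 (edgeR adjusted p = 0.047). Genes of glycolysis and hypoxia gave 6 higher, 6 lower and 3 not called of 15, not far from the shares over all genes (29.3% and 33.8%). The hexokinase genes moved apart: *Hk1* was higher at 68.0 and 63.3 CPM against 22.7 and 23.2 (1.52, SE 0.15) and *Hk2* lower at 64.8 and 84.0 CPM against 294 and 345 (-2.10, SE 0.26). *Slc2a1*, the glucose transporter of most cells, was at 69.5 and 37.8 CPM against 16.8 and 22.5 (1.44, SE 0.25), and *Ldha* was lower at 607 and 759 CPM against 2060 and 2020 (-1.58, SE 0.15). *Vegfa* (0.65) was lost without DMBA+TAM replicate 1 (0.26) or either TAM short library (0.56 and 0.68).

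Genes often used as references moved as well. Of 12, 9 were lower, 1 was higher and *Gapdh* and *Ppia* were not called. With libraries scaled by their totals 6 were lower. *Actb*, the cytoskeletal actin, was at 2790 and 2910 CPM against 5060 and 5480 (-0.89, SE 0.16), and *Tfrc*, the transferrin receptor, at 54.8 and 43.1 against 327 and 337 (-2.77, SE 0.16). The member that rose was *Gusb*, a lysosomal enzyme, at 168 and 168 CPM against 33.1 and 37.0 (2.26, SE 0.14, edgeR adjusted p = 4.57e-07).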

How the data were processed

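RNA-seq of 10 libraries in 5 groups was used, 2 libraries a group. The authors aligned poly-A reads with TopHat 2.0.12, counted them per gene with HTSeq 0.6.1 and deposited raw counts and FPKM values, the latter divided by gene length and depth; per the submitters' processing notes the build was GRCm38.p6. The table had 47074 lines, of which 5 were fragments of split lines, leaving 47069 genes. The authors' own fold changes and p-values in it were not used. Whether counting used strand is not given in the sources used here, so overlapping genes and near-identical copies (defensin, *Reg3*, lysozyme, ribosomal, immunoglobulin and *Ugt* genes) are uncertain.

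Counts were tested with edgeR 4.0.16 (filterByExpr, TMM, quasi-likelihood test) in 1 fit over the 10 libraries, and called at a Benjamini-Hochberg adjusted p under 0.05. TMM assumes that most genes do not differ, which this contrast does not meet well, and the split under another scaling is therefore given beside the calls. Normalized CPM are counts scaled to a common total after TMM. For genes with no count in a group, the fold is a bound against 3 counts over that group, and for genes with at most 3 counts in each library of it, a ratio with a 95% exact interval. Scripts were tested on simulated counts. The comparison, the 48 gene lists and the motifs were chosen with earlier results of these data known. Genes were named by rule: *Ppp2r1a* and *Lgr5*, up to 4 members of each list and direction and the members that define it, the 15 largest rises and falls (at least 10 counts in each library, mean of at least 50 normalized CPM), the 10 highest FPKM values of each group, 10 genes of each direction with at most 3 counts a library in the lower group, and the 10 largest ratios between the DMBA+TAM libraries. Some genes that this rule names are not reported here. *Vim*, *Fos*, *Jun* and *Fosl1* were added after their values were seen. Alternatives were DESeq2 1.42.0, scaling by library totals, no filter, a fit of the 4 libraries alone, a replicate block, thinning to the smallest total, and leaving out each library.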

Additional observations from a re-analysis of the deposited data

How the results depend on the processing

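Both DMBA+TAM libraries were shallow, so genes under about 3 counts there (1.58 and 1.32 CPM) could not be told from 0, and list calls for rare cell types rest on few counts. Calls higher and lower numbered 4734 and 5473, 4685 and 4817 with DESeq2, 5999 and 3775 with libraries scaled by their totals, 4684 and 5792 without a filter, 4636 and 5081 in the fit of the 4 libraries alone, 3843 and 4101 after thinning, and 4026 to 4215 and 4865 to 4935 when a library was left out. Between 76.0% and 97.5% of the calls remained under each of these, and the calls that turned to the other direction numbered 3 without DMBA+TAM replicate 2 and 0 under every other alternative. The cause of the changes below was not tested.

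The replicate numbers do not pair the libraries (r = -0.002 between the replicate differences of TAM short and DMBA+TAM), and with the replicate block 4677 genes were higher and 5377 lower. With libraries scaled by their totals the members called lower were 4 for crypt stem cells, 0 for interferon, 3 for PP2A and 7 for ribosomal proteins, and 9 p53 targets were higher. Without a filter 8 B and plasma cell and 5 BMP genes were lower, the same counts as in the fit of the 4 libraries alone, where 4 skeletal muscle genes were higher. After thinning, 8 B and plasma cell and 24 ribosomal genes were lower, and 3 skeletal muscle and 9 Hox genes higher. When a library was left out, the counts ranged from 2 to 3 for crypt stem genes higher, 3 to 4 for B and plasma cell genes lower, 2 to 10 for skeletal muscle genes higher, 1 to 3 for interferon genes lower, 1 to 3 for ERK targets lower and 23 to 33 for ribosomal genes lower. Some log2 fold changes turned in sign and were called on at least 1 side of the turn. Those of *Acta1* (from -3.69 without DMBA+TAM replicate 2 to 8.22 without replicate 1), *Aldoa* (-0.49 to 1.06), *Ckm* (-1.74 to 7.93), *Myh2* (-4.70 to 8.88) and *Mylpf* (-2.90 to 6.66) did so when a library was left out. *Ckm* and *Myh2* were not called without replicate 2. With libraries scaled by their totals, those of *Bmpr1a* (0.34), *Eef1a1* (0.36), *Pgk1* (0.00, not called) and *Ppp2r2d* (0.39) did so. *Bmpr1a*, *Eef1a1* and *Ppp2r2d* were not called by TMM scaling.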

Other observations

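Genes that detoxify foreign compounds were more often lower than higher in DMBA+TAM, an order also seen over all genes, and many were not called. Of 34 cytochrome P450 genes of families 2, 3 and 4 tested of 73, 15 were lower, 6 higher and 13 not called (33.8% and 29.3% over all genes). *Cyp4f14*, a fatty acid hydroxylase, had 0 and 1 counts in DMBA+TAM and 7230 and 5337 in TAM short (ratio 3120, interval 560 to 123000). *Cyp2e1*, known from the metabolism of ethanol, rose from 0.902 and 1.26 CPM to 161 and 147 (log2 fold change 7.14, SE 0.73, edgeR adjusted p = 1.55e-05). Of 39 glutathione, glucuronide and sulfate transferases tested of 64, 17 were lower, 7 higher and 15 not called, beside the same shares over all genes. *Sult1d1*, a sulfotransferase, had no count against 2525 and 2155 (at least 387-fold lower), and *Gstm2* rose from 7.10 and 8.19 CPM to 56.9 and 58.9 (2.92, SE 0.19). Many of these genes have near-identical copies, and reads may be split among them.

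Antibody genes were lower or not called, never higher: 65 of 100 immunoglobulin variable segments and 8 of 11 constant segments were lower, as were 6 of 7 constant segments of the T cell receptor. Of 8 mast cell genes 3 were higher, 1 lower and 4 not called (29.3% higher and 33.8% lower over all genes). *Mcpt2*, a protease of mucosal mast cells, had no count in DMBA+TAM and 110 and 151 in TAM short (at least 21.6-fold lower). *Mcpt1*, the other mucosal protease of the list, was at 25.3 and 14.5 CPM against 41.7 and 42.1 and was not called (-1.09, SE 0.57, edgeR adjusted p = 0.123), although it was called lower in the fit of the 4 libraries alone (-1.05), without a filter (-1.16) and with the replicate block (-1.16). *Mcpt4* and *Cpa3*, of connective tissue mast cells, rose from 1.47 and 0.756 to 18.4 and 40.9 CPM (4.71, SE 0.65) and from 1.47 and 1.26 to 15.3 and 37.8 CPM (4.28, SE 0.47). Mesothelial markers gave 1 higher and 2 lower of 6, so that the share lower lay near that over all genes, with *Msln*, *Upk1b*, *Upk3b* and *Lrrn4* at 0 in DMBA+TAM and *Wt1* at 9.48 and 9.23 CPM against 0.902 and 0.126.

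Hox genes, which encode position along the body axis, gave 15 higher, none lower and 14 not called of 29 tested of 39. Their summed level was 280 and 245 CPM in DMBA+TAM and 65.6 and 83.7 in TAM short, and 28.0 to 28.8 CPM in control, 410 to 435 in DMBA and 376 to 407 in TAM long. *Hoxc6* was at 17.9 and 18.9 CPM against 3.27 and 2.64 (2.63, SE 0.44). Ribosomal protein genes lay near the shift between scalings: 40 of 77 were lower by TMM and 7 with libraries scaled by their totals, with a median log2 fold change of -0.37. *Rpl39l*, a variant known from testis, had 22 and 31 counts against none (at least 71.2-fold higher).

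Of 11 short motifs searched on both strands of the 250 bases before each start site, the motif of the Hnf1 factors occurred in 2.44% of 655 promoters of genes that fell by at least 4 on the log2 scale, in 0% of 601 that rose by as much and in 0.429% of all, against 0.569% of all 3340 promoters of genes called lower, 0.036% of all 2775 called higher and 0.321% of 3429 not called. CAAAGTCCA, of the Hnf4 factors, occurred in 1.53%, 0.333% and 0.394%, against 0.449% of all called lower, 0.396% of all called higher and 0.583% of those not called. CCGGAAGT, of the Ets factors, occurred in 1.37%, 0.333% and 2.9%, against 6.65% of all called lower, 2.52% of all called higher and 6.56% of those not called. TTTATGG, of the Cdx factors, occurred in 2.14%, 1.5% and 2.53%. It occurred in 1.8% of all called lower, 1.44% of all called higher and 1.57% of those not called. The shares of the TATA box, GC box, Tead, Srf and C/ebp motifs are not given here. All these shares are descriptions over the promoters searched, which cover 9544 of the genes tested, and no test was made.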
